A study of Mus musculus with 18 samples.

Results

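The integrated stress response genes examined here are Atf4, Atf5, Ddit3, Trib3, Chac1, Asns, Psat1, Sesn2, Gdf15 and Cdkn1a. They were taken by name from the platform's gene annotation, and all 10 were among the 20352 genes measured. Each rests on 3 (Gdf15) to 12 (Asns) probe sets that the annotation gives to that symbol alone, 68 probe sets in all. Each gene's level is the median over those probe sets within an array, on the deposited log2 scale, where a difference of 1 means 2-fold.

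RNA came from the caudal corpus callosum, a white matter tract, of C57BL/6 mice on a diet with 0.2% cuprizone (CPZ), a toxin that damages oligodendrocytes and so removes myelin. Every group received CPZ, and no array of normally fed mice was used here. The mice were Wild_Type (WT) or Knockout for TREM2 (TREM2-/-, KO), a lipid-sensing receptor of microglia. The 18 arrays comprise 4 of WT and 3 of KO at 6 weeks, and 5 of WT and 6 of KO at 12 weeks. The labels describe the stage as the age of the animals, while their treatment text also gives feeding times, so age and time on CPZ cannot be told apart here. They neither describe the knockout allele nor state that arrays are different mice. The p-values therefore measure only the spread between these samples, part of which may be technical, and the number of arrays limits the precision.

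The integrated stress response begins when a stress-sensing kinase phosphorylates the translation factor eIF2alpha. General protein synthesis then slows while the transcription factor ATF4 is made, and ATF4, with CHOP (encoded by Ddit3), switches on genes for amino acid supply, redox balance and growth arrest. The pathway is known from oligodendrocytes under toxic, inflammatory or secretory stress. ATF4 itself is controlled largely through translation, so its mRNA is not a measure of its protein. Fewer cells of a type and less RNA per cell cannot be told apart in bulk tissue.

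Promoters were read for the binding element that ATF4 shares with C/EBP factors, because several of the 10 genes are textbook carriers of it. RefSeq start sites (build GRCm38.p6) gave 14 windows of 300 bases, from 250 before to 50 after the start, for all 10 genes. The letters searched were TGATGNAA on both strands, where N is any base. Windows of Chac1, Trib3 and Asns held a match, and 3.91% of 32544 promoters of the same length did. The stretches are shown 5′ to 3′ on the gene's strand with the match in capitals, from chr2:119351003-119351102 (plus strand) for Chac1, chr6:7693210-7693309 (minus strand) for Asns and chr2:152344028-152344057 (minus strand) for Trib3.
Chac1: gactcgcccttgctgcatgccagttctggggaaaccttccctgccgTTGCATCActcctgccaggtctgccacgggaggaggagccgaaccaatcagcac
Asns: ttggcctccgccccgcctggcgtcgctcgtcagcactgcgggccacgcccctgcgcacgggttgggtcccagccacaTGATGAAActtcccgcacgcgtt
Trib3: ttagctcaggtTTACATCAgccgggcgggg
The match begins at position −193 in Chac1, −23 in Asns and 14 in Trib3, counted from 0 at the start base, and lies on the opposite strand in Chac1 and Trib3. The cAMP response element (TGACGTCA, in 1.80% of promoters) and the endoplasmic reticulum stress element (ERSE, in 0.12%) had no match in the windows of the 10 genes.

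Over the 18 arrays the tract held oligodendrocyte, astrocyte and myeloid transcripts, with Mbp group means of log2 9.11 to 10.78, Gfap of 9.99 to 10.67 and Csf1r of 7.78 to 9.21. Transcripts of neurons (Slc17a7, 7.23 to 8.22) and of choroid plexus (Ttr, 10.23 to 12.10) were also present, and Ttr ranged from 8.12 to 12.98 in single arrays. Trem2 was lower in every KO array than in every WT array of the same stage (at most 6.05 against at least 6.44 at 6 weeks, and at most 5.59 against at least 6.83 at 12 weeks). KO replicate 2 of 6 weeks had the lowest array weight (0.446, on a scale where a typical array has 1). WT replicate 4 of 6 weeks had the next lowest (0.503). KO replicate 2 was the highest of the 7 arrays of 6 weeks in 8 of the 10 stress genes, and KO replicate 3 was the lowest in 5. Marker lists were scored as the mean over genes, each centred on its mean over the 18 arrays. KO replicate 2 had the lowest neuron score of all arrays (−1.77) and the highest myeloid (1.48) and astrocyte (0.70) scores. WT replicate 4 was at −1.26 for neurons and 2.69 for choroid plexus and ependyma. The part of this make-up in the stress gene values was not tested.

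**Figure D1:**
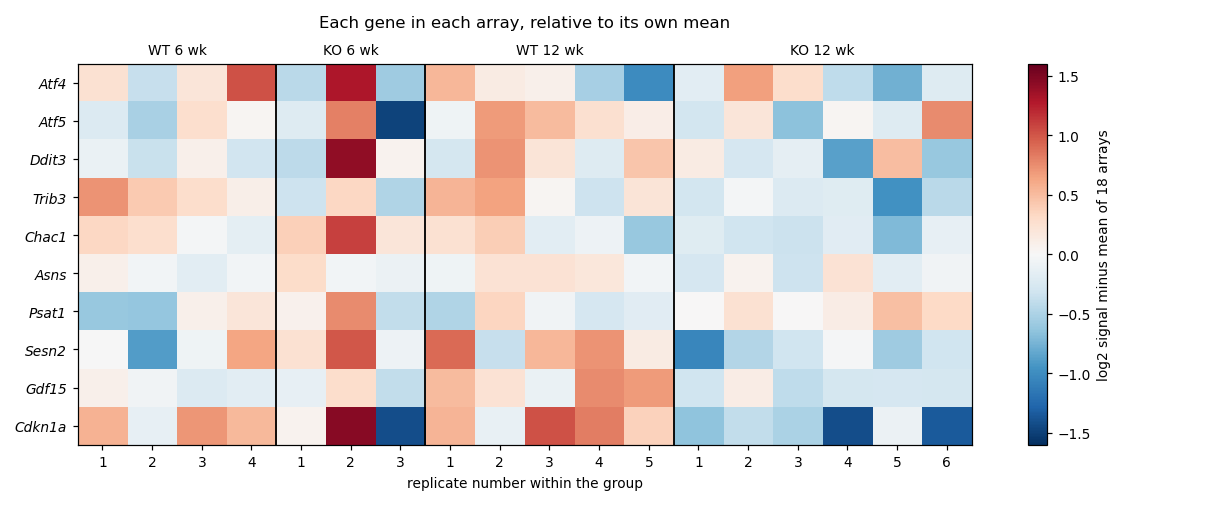
Log2 signal of each of the 10 genes (rows) in each of the 18 arrays (columns, numbered by replicate within the group), minus the gene's mean over the arrays; red is above and blue below that mean. KO replicate 2 of 6 weeks is red for most genes, and the KO arrays of 12 weeks are mostly pale or blue except for Psat1.

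At 12 weeks the means of Cdkn1a, Sesn2, Gdf15 and Trib3 were 2.40-fold, 1.79-fold, 1.58-fold and 1.49-fold lower in KO, while the transcription factor gene Atf4 differed by a log2 of 0.06 ± 0.35 (SE) and the serine synthesis gene Psat1 was higher by 0.33 ± 0.21. None of the 10 passed the test over all 16281 genes (limma, Benjamini-Hochberg adjusted p under 0.05), which 0.43% of genes did in this comparison (0.356% higher and 0.0737% lower in KO). By unadjusted p under 0.05, 4 of the 10 were lower in KO and 0 higher, against 4.23% of all genes lower and 6.87% higher. The difference lay below 0 in 8 of the 10 genes and in 47.6% of all genes, with a median of −0.36 for the 10 and 0.02 for all. None of the 10 had KO and WT arrays that were fully separated at 12 weeks, as 0.762% (lower) and 1.7% (higher) of all genes had. At 6 weeks the same comparison gave 0 genes of the 10 by either criterion, in a background of 0.043% of genes by adjusted p and 5.44% by unadjusted p (3.26% higher and 2.17% lower in KO). Without KO replicate 2 that count by unadjusted p was 2 of 10, Trib3 and Cdkn1a, both lower. Without KO replicate 3 the genes called so were Chac1 (0.63) and Psat1 (0.65), both higher. Without KO replicate 1 it was Ddit3 (0.91), also higher. The share of all genes called by unadjusted p in these refits was not taken, so their counts have no background here. Which genes were called at 6 weeks, and whether those were lower or higher, thus depended on which KO array was left out. Trib3 (below 0) and Chac1 (above 0) kept their sign in all 29 alternative fits. Atf4, Atf5 and Cdkn1a turned above 0 without KO replicate 3 (0.15, 0.41 and 0.34). With all arrays 6 of the 10 lay above 0 and 4 below, against 49.6% and 50.4% of all genes, and none was separated, as 2.36% (lower) and 2.71% (higher) of genes were.

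**Figure D2:**
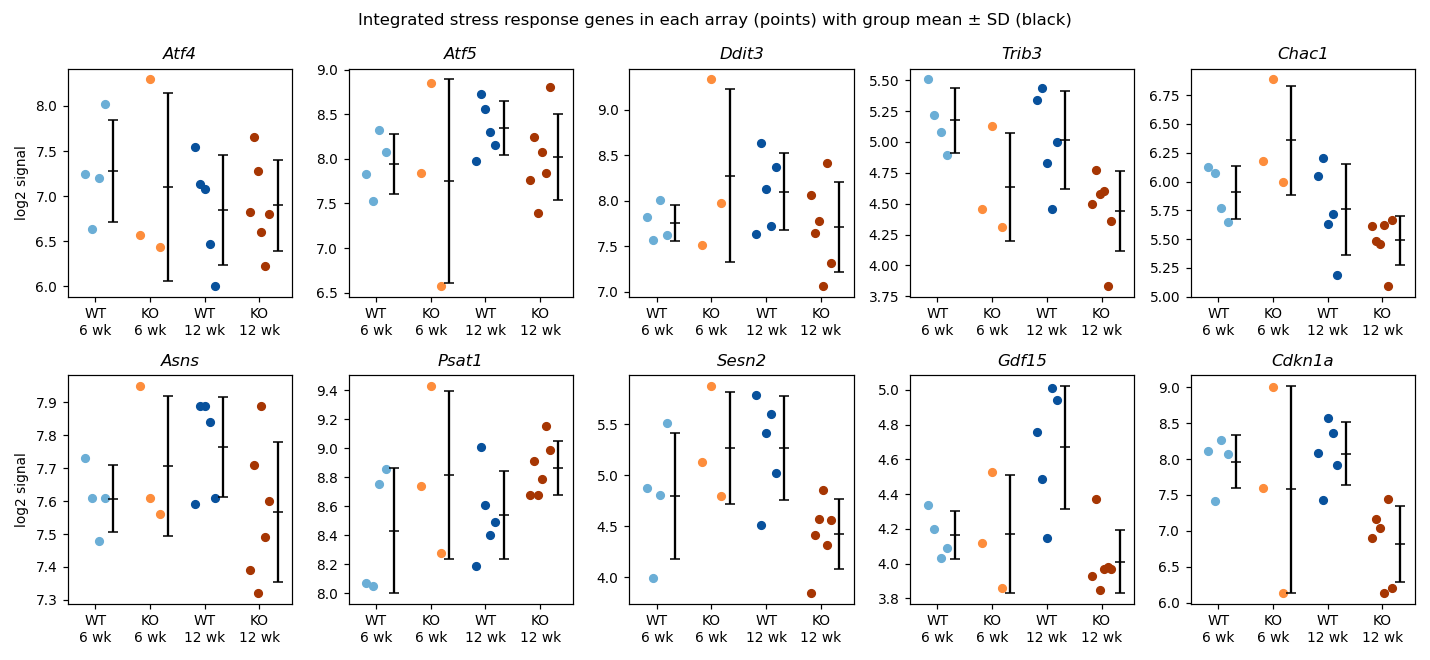
Log2 signal (vertical axis, a separate scale for each gene) of the 10 genes in WT and KO arrays of 6 and 12 weeks; each point is 1 array and the black bars are the group mean ± SD. In Cdkn1a and Gdf15, 5 of the 6 KO arrays of 12 weeks lie under every WT array of 12 weeks, and in Sesn2 3 of 6 do.

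Transcription factors head the pathway. Atf4, which drives the response, was at 7.25, 6.64, 7.20 and 8.02 in WT and at 6.57, 8.30 and 6.44 in KO at 6 weeks. At 12 weeks it was at 7.54, 7.14, 7.08, 6.47 and 6.00 in WT, and in KO it ran from 6.23 through a median of 6.82 to 7.66. The groups overlapped at both stages. KO differed from WT by −0.18 ± 0.44 (SE) at 6 weeks and by 0.06 ± 0.35 at 12 weeks, with 95% intervals of −1.10 to 0.74 and −0.67 to 0.79, which leave room for a change of either sign. Without KO replicate 2 the 6-week difference was −0.78, without KO replicate 3 it was 0.15, and with the mean of the probe sets it was 0.17.

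Atf5, a related factor that takes part in the mitochondrial stress response, averaged 7.94 ± 0.34 (SD, n = 4) in the WT arrays of 6 weeks and 7.75 ± 1.15 (SD, n = 3) in the KO arrays. At 12 weeks these means were 8.35 ± 0.30 (SD, n = 5) and 8.02 ± 0.48 (SD, n = 6). All 5 probe sets of Atf5 were lower in KO at 12 weeks, from −0.45 to −0.19, yet the gene's difference of −0.33 ± 0.31 (SE) was about as large as its error (adjusted p = 0.723). At 6 weeks the difference was −0.19 ± 0.39, −0.74 without KO replicate 2, 0.41 without KO replicate 3 and 0.20 with the mean of the probe sets.

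Ddit3, whose product CHOP promotes cell death under lasting stress, was at 7.82, 7.57, 8.01 and 7.62 in WT and at 7.51, 9.34 and 7.98 in KO at 6 weeks. Its mean difference at 6 weeks was 0.52 ± 0.37 (SE), and −0.01 without KO replicate 2. At 12 weeks WT arrays were at 7.64, 8.64, 8.13, 7.72 and 8.37, and KO arrays ran from 7.06 through 7.71 to 8.42. KO was lower by 0.39 ± 0.29 (log2, SE; limma adjusted p = 0.653), with all 4 probe sets lower, and the groups overlapped.

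Trib3 encodes a pseudokinase that is induced by ATF4 and CHOP and in turn restrains them. Its KO mean was lower than the WT mean at both stages. WT arrays were at 5.51, 5.22, 5.08 and 4.89 and KO arrays at 4.46, 5.13 and 4.31 at 6 weeks. At 12 weeks WT was at 5.34, 5.44, 4.83, 4.46 and 5.00, and KO ran from 3.83 through 4.54 to 4.77. Of the KO arrays 2 of 3 and 2 of 6 lay below every WT array of their stage. The differences were −0.54 ± 0.27 (log2, SE; adjusted p = 0.934) and −0.58 ± 0.21 (adjusted p = 0.312), with exact two-sided permutation p of 0.143 and 0.0260. At 6 weeks 5 of its 8 probe sets were lower in KO and 3 higher, from −1.15 to 0.69, and the mean of the probe sets gave −0.26. At 12 weeks the size depended on the probe set: all 8 were lower in KO, from −0.04 to −1.57, the last in the brightest one. In males the 12-week difference was −0.15 and in females −1.13 (sex assigned by Xist against Y-linked transcripts, 3 KO and 3 WT males, 3 KO and 2 WT females), a split that was not tested. At 12 weeks WT replicates 1 and 2 were female and 3 to 5 male, while KO replicates 1 to 3 were male and 4 to 6 female. Within each genotype sex and replicate number thus cannot be told apart, for any gene. The Trib3 means were 5.39 in WT females, 4.62 in KO males, 4.76 in WT males and 4.26 in KO females.

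Asns and Psat1 supply amino acids, asparagine and, through phosphoserine, serine. Asns was the steadiest of the 10, with all 18 arrays between 7.32 and 7.95. At 12 weeks WT arrays stood at 7.59, 7.89, 7.89, 7.84 and 7.61, and KO arrays ran from 7.32 through 7.55 to 7.89, 3 of 6 below every WT array. At 6 weeks WT was at 7.73, 7.61, 7.48 and 7.61 and KO at 7.95, 7.61 and 7.56, with overlapping groups. The 12-week gene value was lower in KO by 0.20 ± 0.14 (log2, SE; limma adjusted p = 0.639). Of its 12 probe sets 10 were lower in KO, and the mean of the probe sets gave −0.37 (limma adjusted p = 0.166).

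Psat1 was the only one of the 10 besides Atf4 with a higher mean in KO at 12 weeks. WT arrays were at 8.19, 9.01, 8.61, 8.40 and 8.49, and KO arrays ran from 8.68 through 8.85 to 9.15. Only 1 WT array, replicate 2, lay inside the KO range. At 6 weeks WT arrays were at 8.07, 8.05, 8.75 and 8.86 and KO arrays at 8.74, 9.43 and 8.28, and the difference of 0.38 ± 0.27 (log2, SE) was 0.08 without KO replicate 2. The difference of 0.33 ± 0.21 (log2, SE) did not pass (limma adjusted p = 0.597; exact two-sided permutation p = 0.0606), and the 11 probe sets were divided, 7 higher and 4 lower. Astrocyte and myeloid marker lists were higher in the same KO arrays (12 of 13 and 18 of 19 genes higher in KO at 12 weeks, with 1 and 4 passing). Psat1 followed both lists over the 18 arrays (Pearson r of 0.63 and 0.66, with array and group in common). Its r was as far from 0 with the neuron list (−0.64), and it was 0.43 with endothelium and mural cells. The part of these lists in the Psat1 difference was not tested.

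Chac1 encodes an enzyme that degrades glutathione and is among the most direct readouts of ATF4 with CHOP. At 6 weeks it was at 6.13, 6.07, 5.77 and 5.65 in WT and at 6.18, 6.89 and 6.00 in KO. At 12 weeks WT arrays were at 6.05, 6.20, 5.63, 5.72 and 5.19, and KO arrays ran from 5.09 through 5.55 to 5.67. KO was higher than WT at 6 weeks (0.45 ± 0.25, SE) and lower at 12 weeks (−0.27 ± 0.20), and neither passed (limma adjusted p = 0.943 and 0.646). Without KO replicate 2 the 6-week difference was 0.19, and with the mean of the probe sets it was 0.73. The 3 genes whose promoter stretches are shown above, Chac1, Asns and Trib3, differed in KO at 12 weeks by −0.27, −0.20 and −0.58.

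Sesn2, Gdf15 and Cdkn1a carry the response outward from the cell's amino acid economy. Sestrin 2, from Sesn2, senses leucine and holds back the growth kinase mTORC1. Sesn2 was at 5.79, 4.51, 5.42, 5.60 and 5.02 in WT at 12 weeks, and in KO it ran from 3.84 through 4.48 to 4.86. Of the KO arrays 3 of 6 lay below every WT array, and WT replicate 2 lay among the KO arrays. The log2 difference was −0.84 ± 0.27 (SE; limma adjusted p = 0.235), with an exact two-sided permutation p of 0.0152. At 6 weeks WT arrays were at 4.88, 3.99, 4.81 and 5.51 and KO arrays at 5.13, 5.88 and 4.80, a difference of 0.47 ± 0.35. It was 0.17 without KO replicate 2, 0.23 with the mean of the probe sets and −0.46 with the brightest one. Of 10 probe sets 8 were lower in KO at 12 weeks, and the brightest showed −1.48.

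Gdf15 encodes a secreted stress hormone of the TGF-beta family. It was a dim gene here, with group means between 4.01 and 4.67, not far above the filter at 3.41 for dim genes, so the size of its differences is uncertain. Trib3 and Sesn2 were little brighter (means over all arrays of 4.80 and 4.88, against 4.25 for Gdf15), and the same limit applies to them. At 12 weeks the WT arrays were at 4.76, 4.49, 4.15, 5.01 and 4.94 for Gdf15. KO arrays ran from 3.85 through 3.97 to 4.37, and 5 of the 6 lay below the lowest WT array. At 6 weeks WT was at 4.34, 4.20, 4.03 and 4.09 and KO at 4.12, 4.53 and 3.86, a mean difference of 0.00 ± 0.22 (SE). That difference was −0.18 without KO replicate 2, 0.16 without KO replicate 3 and 0.29 with the mean of the probe sets. At 12 weeks the log2 difference was −0.66 ± 0.17 (SE; limma adjusted p = 0.106; exact two-sided permutation p = 0.00649, where 0.00216 is the smallest that 462 arrangements give). It was −0.65 in males and −0.65 in females, and all 3 probe sets were lower, from −0.66 to −0.76. In limma fits with the mean of the probe sets (adjusted p = 0.0388) or with array weights (adjusted p = 0.0495) Gdf15 did pass.

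Cdkn1a encodes p21, an inhibitor of cyclin-dependent kinases that halts the cell cycle and is a target of both p53 and the stress response. At 12 weeks WT arrays were at 8.09, 7.43, 8.57, 8.37 and 7.92. KO arrays ran from 6.13 through 6.97 to 7.45, 5 of 6 below the lowest WT array, and the groups met only where the highest KO array passed WT replicate 2. At 6 weeks WT was at 8.11, 7.42, 8.26 and 8.07 and KO at 7.60, 9.01 and 6.13, an SD of 1.44 in KO against 0.38 in WT. The 6-week difference was −0.39 ± 0.47 (SE), −1.10 without KO replicate 2 and 0.34 without KO replicate 3.

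The Cdkn1a difference at 12 weeks was −1.26 ± 0.37 (log2, SE; limma adjusted p = 0.173; exact two-sided permutation p = 0.00649). Its spread was estimated from all 18 arrays, the scattered KO arrays of 6 weeks included. In a fit of the 11 arrays of 12 weeks alone Cdkn1a passed (adjusted p = 0.0251), as it did without KO replicate 2 of 6 weeks (adjusted p = 0.0464). In these fits 233 and 126 of all genes passed, against 70 in the fit described. With other single arrays left out the limma adjusted p of Cdkn1a was up to 0.358, and with a replicate block it was 0.4. Of its 6 probe sets the 5 brighter ones were at −1.71 to −1.11, and the dim one (mean 3.26) was at −0.07. The difference was −1.26 in males and −1.17 in females.

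Beside it, 10 of 12 marker genes of oligodendrocyte precursors had a lower KO mean at 12 weeks (list median −0.24, 0 passing; by unadjusted p 2 lower and 1 higher). Ptprz1, a receptor phosphatase and the gene of smallest p in that list, was higher in KO by 0.42 ± 0.16 (log2, SE; limma adjusted p = 0.314). Gpr17, a receptor of differentiating precursors, was at −0.56 ± 0.23 and Bcas1, of early myelinating cells, at −1.0 ± 0.41 (log2, SE). The mean level of that list, each gene centred on its mean over the arrays, ran from −0.25 to 0.26 in WT and from −0.50 to 0.04 in KO. Cdkn1a followed it over the 18 arrays (Pearson r = 0.69). With mature oligodendrocytes its r was 0.51 and with neurons −0.41. The part of these lists in the Cdkn1a difference was not tested. Genes of mature oligodendrocytes had a median of 0.19 (12 of 19 higher in KO, 0 passing).

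**Figure D3:**
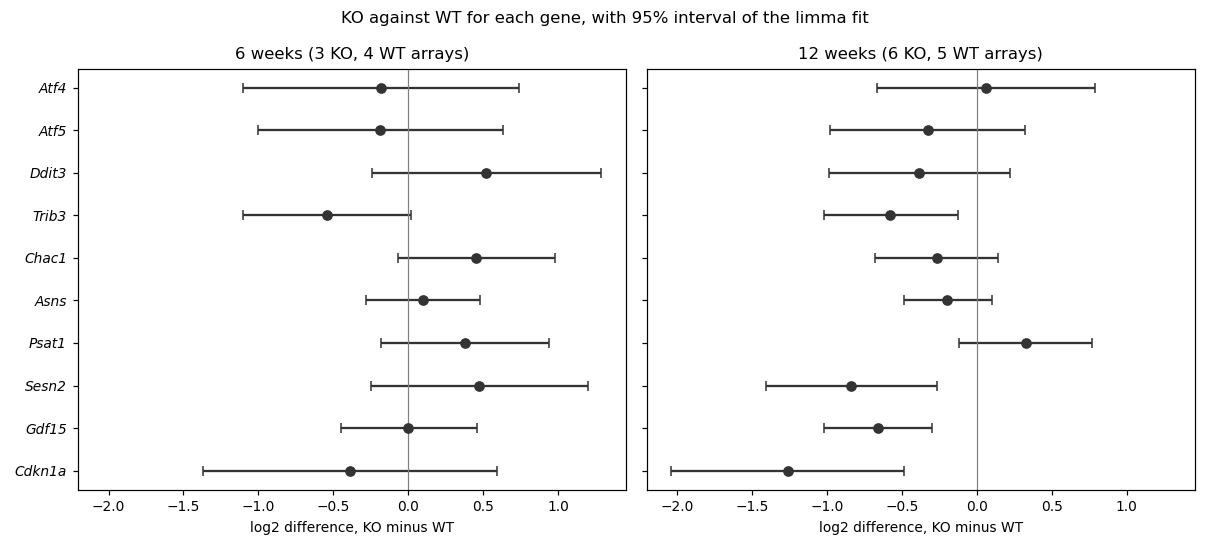
Log2 difference of KO from WT (horizontal axis) for each of the 10 genes at 6 weeks and at 12 weeks, with the 95% interval of the limma fit, not adjusted for the number of genes. At 6 weeks every interval crosses 0; at 12 weeks those of Trib3, Sesn2, Gdf15 and Cdkn1a lie below it.

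Probe sets were also counted singly. At 12 weeks 53 of the 68 probe sets of the 10 genes had a lower mean in KO and 15 a higher one, against 25 lower and 40 higher at 6 weeks. Probe sets of a gene share their arrays and are not independent. The only genes with more probe sets higher than lower in KO at 12 weeks were Psat1 (7 of 11) and Atf4 (3 of 5).

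**Figure D4:**
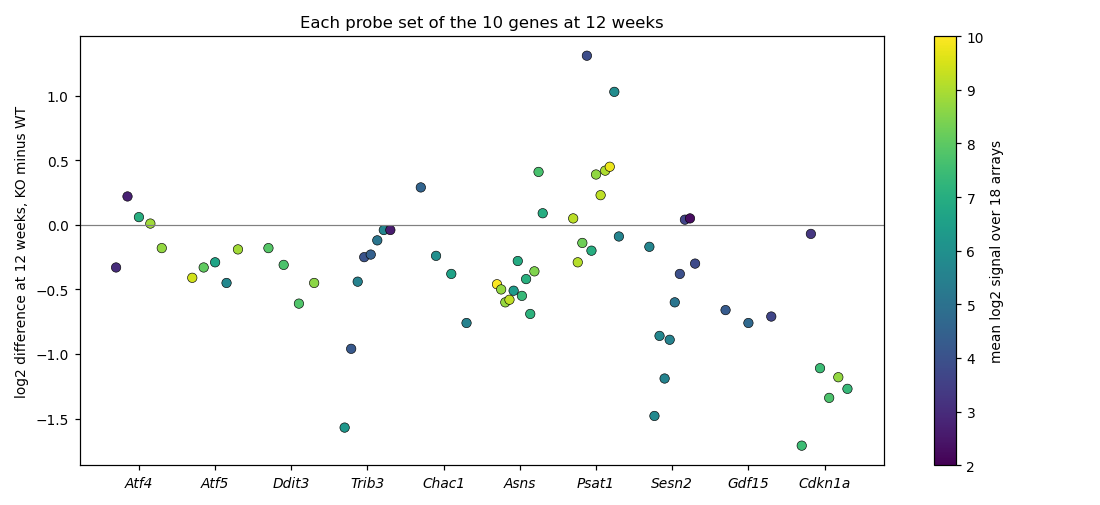
Log2 difference of KO from WT at 12 weeks (vertical axis) for each probe set of each gene; colour gives the probe set's mean log2 signal over 18 arrays. All probe sets of Atf5, Ddit3, Trib3, Gdf15 and Cdkn1a lie below 0. In Trib3, Chac1, Asns, Psat1, Sesn2 and Cdkn1a the values span more than 1 log2 unit within the gene.

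Between the stages, WT and KO were compared with themselves. In WT none of the 10 passed from 6 to 12 weeks (limma; 0.0184% of all genes did), and 1 of 10 had an unadjusted p under 0.05, against 8.48% of all genes (3.96% higher and 4.51% lower). That gene was Gdf15, higher at 12 weeks by 0.50 ± 0.19 (log2, SE; adjusted p = 0.502), with 4 of 5 arrays of 12 weeks above every array of 6 weeks. The differences of the 10 in WT ran from −0.43 (Atf4) to 0.50, and 7 were above 0 and 3 below, against 51.2% and 48.8% of all genes. None was separated between stages, as 1.31% (lower) and 1.19% (higher) of genes were.

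In KO none of the 10 passed between stages either (limma; 0.00614% of all genes did), and 2 of 10 had an unadjusted p under 0.05, both lower at 12 weeks, against 2.78% of genes lower, 4.7% higher and 7.49% in all. Of the 10, 8 lay below 0, as 47.8% of all genes did (52.2% above). Chac1 was lower by 0.87 ± 0.23 (log2, SE; limma adjusted p = 0.346), and its 6 arrays of 12 weeks all lay below its 3 arrays of 6 weeks. Of all genes 1.62% were separated in that direction and 2.28% in the other. Sesn2 was lower by 0.84 ± 0.32 (log2, SE; limma adjusted p = 0.588), with 5 of 6 arrays of 12 weeks below the lowest of 6 weeks. KO replicate 2 of 6 weeks bears on both. Without it the difference of Chac1 was −0.60 and that of Sesn2 −0.54, and Cdkn1a went from −0.77 to −0.05 and Ddit3 from −0.56 to −0.03. The sign turned without it in Atf4 (−0.20 to 0.40), Trib3 (−0.20 to 0.05) and Gdf15 (−0.16 to 0.02), none of them called. The count below 0 was then 5 of 10, and that by unadjusted p was 1 lower (Chac1) and 1 higher (Atf5, 0.81). The shares of all genes given above are from the fit with all arrays and were not taken for this one.

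The interaction asks whether the KO difference at 12 weeks departed from that at 6 weeks. It uses the same arrays as the comparisons above. None of the 10 passed (limma; 0.0% of all genes did), and 3 of 10 had an unadjusted p under 0.05, all with a lower KO value at 12 than at 6 weeks relative to WT, against 2.32% of genes in that direction, 2.87% in the other and 5.19% in all. They were Sesn2 (−1.31 ± 0.44, SE; limma adjusted p = 0.839), Chac1 (−0.72 ± 0.32) and Gdf15 (−0.66 ± 0.28). Without KO replicate 2 of 6 weeks they were −1.01, −0.46 and −0.48, and only Sesn2 kept an unadjusted p under 0.05. The value lay below 0 in 9 of the 10 and in 47.9% of all genes (52.1% above). Without that array it lay below 0 in 6 and above in 4 (Atf4 0.83, Atf5 0.41, Psat1 0.25 and Trib3 0.21), with no share of all genes taken for that fit. The WT and KO differences between stages in Sesn2 were 0.47 and −0.84.

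Other genes of the pathway were read from lists drawn from textbook knowledge. Of 42 further ATF4 and CHOP target genes tested at 12 weeks 25 were lower in KO and 17 higher (median −0.15), with 0 passing in limma. By unadjusted p 5 were lower and 1 higher. Those lower were Slc7a5, the large neutral amino acid transporter (−0.78 ± 0.19, log2, SE; adjusted p = 0.0815), the mitochondrial folate enzyme gene Mthfd1l (−0.69 ± 0.21), the cationic amino acid transporter gene Slc7a3 (−0.68 ± 0.23), Vegfa (−0.55 ± 0.18), a growth factor of vessels, and Nupr1 (−0.69 ± 0.31), a stress-induced chromatin protein. The 1 higher was Sqstm1 (0.35 ± 0.16), an autophagy receptor. Nupr1 and Sqstm1 were chosen after their values were seen.

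The upstream machinery showed no common direction. Of 21 genes for eIF2alpha kinases, phosphatases and initiation factor subunits 10 were higher and 11 lower in KO at 12 weeks (median −0.01, 0 passing; by unadjusted p 1 higher and 0 lower). The 1 was Eif2ak2, the interferon-inducible kinase PKR, at 0.69 ± 0.27 (log2, SE; limma adjusted p = 0.342), and it was at 0.81 ± 0.33 at 6 weeks. Of 18 cytosolic tRNA synthetase genes and Xpot, 12 were lower (median −0.08, 0 passing), and by unadjusted p 1 was lower, Eprs (−0.56 ± 0.20).

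The parallel arm of the unfolded protein response lay on the other side of 0. Of 25 genes of the ATF6 and XBP1 arm 22 were higher in KO at 12 weeks (median 0.19), against 52.4% of all genes, with 0 passing and, by unadjusted p, 2 higher and 0 lower. These were Sec24d, a coat protein of secretory vesicles (0.64 ± 0.19, log2, SE; limma adjusted p = 0.188), and Herpud1 (0.44 ± 0.19), which acts in degradation of misfolded proteins. At 6 weeks the list had a median of −0.02. In WT it had a median of −0.25 from 6 to 12 weeks, with 5 of 25 lower by unadjusted p, among them Calr (−0.52 ± 0.17) and Dnajb11 (−0.57 ± 0.19).

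Genes of the p53 pathway, which shares Cdkn1a, Sesn2 and Gdf15 as targets, went both ways. Of 20 tested, 9 were higher and 11 lower in KO at 12 weeks (median −0.09, 0 passing), and by unadjusted p 4 were higher and 2 lower. The death receptor gene Fas (1.24 ± 0.32, log2, SE; limma adjusted p = 0.106), Ei24 (0.86 ± 0.27) and Sesn1 (0.79 ± 0.26), a paralog of Sesn2, were higher. Eda2r, a receptor of the TNF family, was lower (−0.56 ± 0.22). Sesn1 and Sesn2 thus stood on opposite sides of 0 in the same arrays.

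**Figure D5:**
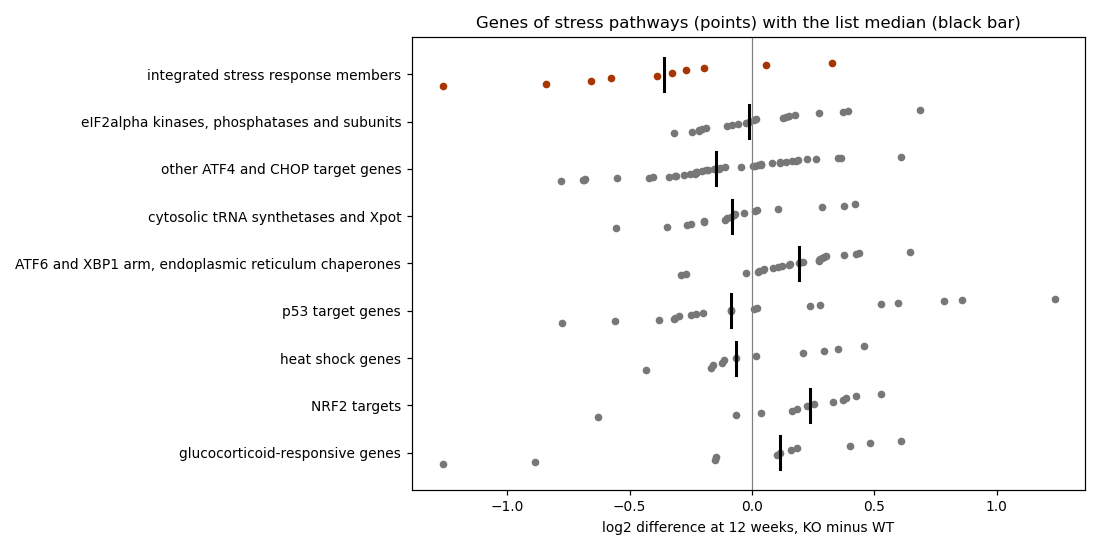
Log2 difference of KO from WT at 12 weeks (horizontal axis) for each tested gene of the 10 stress genes (top row, coloured) and of 8 further stress lists (grey); black bars are list medians, and Cdkn1a is in the top and bottom rows. The median of the 10 genes is −0.36, and those of the other lists lie between −0.15 and 0.24.

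The 10 genes varied together only loosely. Over the 18 arrays the 45 pairs had Pearson r from −0.30 to 0.62, with a median of 0.32. For each gene the most similar of all genes tested was found, as a description of these arrays. Psat1 was most like Rplp0, a ribosomal protein gene (Pearson r = 0.90, Spearman rho = 0.90), Cdkn1a like Pex5l (Pearson r = 0.85, Spearman rho = 0.86), and Atf4 like Uxt (Pearson r = 0.83, Spearman rho = 0.85). Atf5 was most like Nupr1 (Pearson r = 0.82, Spearman rho = 0.71), and Sesn2 had among its 3 nearest genes Slc1a4 (Pearson r = 0.77, Spearman rho = 0.71), a transporter of neutral amino acids. Chac1 had Egr1 and Hbegf (Pearson r = 0.78 each, Spearman rho of 0.72 and 0.66), genes that respond within minutes to stimulation. Without the 2 arrays farthest from the gene's median these r were 0.83, 0.86, 0.74, 0.65, 0.68, 0.53 and 0.66 in the order given. Each gene named was among the 3 most similar of 16281 genes and so was picked for its r, which has no p.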

How the data were processed

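The deposited values are the authors' log2 probe-set signals, 241576 probe sets in 18 arrays of 1 colour, with array medians from 5.26 to 5.41. RNA was column-purified, amplified with a kit for small amounts and biotin-labelled, per the labels' protocols; background correction, normalization and summarisation are not given in the sources used here, and no further normalization was applied. Probe sets with 1 gene symbol (212097) were used, 2742 symbols were updated through a RefSeq table, and the median stood for the gene. A filter on mean signal removed the dimmest 20% of genes (at or under a log2 of 3.41) and kept 16281, all 10 members included. One limma model (3.58.1, R 4.3.3) with 4 group means gave 5 comparisons, two-sided, Benjamini-Hochberg adjusted over all genes, threshold 0.05, with 14 residual and 5.6 prior degrees of freedom. Exact permutation tests compared KO with WT within each stage and the stages within each genotype, 40 in all over the 10 genes, unadjusted. The members and lists were chosen with earlier results of these data known.

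All members are named, as are up to 4 genes of smallest p of each list described and the 3 most similar genes of a member. Alternatives covered the filter, normalization, gene value, spread, weights, samples, replicate block, sex and leaving out arrays. The fit was tested on simulated data. Python 3.11.15, pandas 2.3.3, numpy 2.4.6, scipy 1.17.1 and matplotlib 3.10.9 were used.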

Additional observations from a re-analysis of the deposited data

Results flagged for a closer look

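Of 30 sets of values (10 genes in the 3 groups of 4 to 6 arrays), 2 held an array far from the others, where chance gives about 1 in 20. Chac1 in KO replicate 5 of 12 weeks was at 5.09, below the other KO arrays of that stage by 0.633 of the group's range (limit 0.625). Gdf15 in KO replicate 2 of 12 weeks was at 4.37, above the others by 0.742 of the range. The KO arrays of 6 weeks number 3 and were not examined in this way.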

How the results depend on the processing

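Each of 50 member differences was recomputed under 11 other settings and 18 fits without 1 array, which gave 1430 values. Of these 1425 stayed on the same side of the threshold. None of the 50 passed in the fit described, so no call could be lost. Uncalled differences did change sign in some alternatives. The interaction of Trib3 (−0.03) kept its sign in 19 of 28 and that of Psat1 (−0.06) in 21 of 28. The other 5 values now passed with their sign unchanged, and all 5 belong to KO vs WT at 12 weeks. The number of members passing there, 0 in the fit described, was 1 with the mean of the probe sets (Gdf15, −0.71), 1 with array weights (Gdf15, −0.68), 1 in only the groups compared (Cdkn1a) and 1 without the 2 arrays of lowest weight (Cdkn1a, adjusted p = 0.0391). It ran from 0 to 1 when each array was left out in turn, and was 0 in every such fit for the other comparisons. At 12 weeks the differences kept their sign in all alternatives for Cdkn1a (−1.11 to −1.43), Sesn2 (−0.58 to −1.48), Gdf15 (−0.57 to −0.79) and Trib3 (−0.45 to −1.57). So did Atf5, Ddit3, Chac1 and Asns below 0 and Psat1 above it, while Atf4 kept its sign in 23 of 29. Gdf15 had no value with the stricter filter or the brightest probe set, being among the dimmest there, and the interaction had none with only the groups compared. Same-numbered WT and KO arrays of a stage had correlations of deviations from the group means of −0.36 to 0.24. The labels do not say that numbers pair arrays, and correlations from so few arrays cannot exclude it. With a replicate block the number of members passing was 0 in every comparison, with Cdkn1a at −1.14 (limma adjusted p = 0.4) at 12 weeks. Over all alternatives the count of all genes passing ran from 0 to 11 (7 in the fit described) at 6 weeks, 15 to 233 (70) at 12 weeks, 0 to 7 (3) between stages in WT and 0 to 5 (1) in KO, and was 0 for the interaction.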

Other observations

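Other stress programmes had values of their own at 12 weeks. Of 12 NRF2 targets, genes of the antioxidant response, 10 were higher in KO (median 0.24, 0 passing; by unadjusted p 2 higher and 1 lower), with the peroxiredoxin gene Prdx1 at 0.53 ± 0.18 (log2, SE; limma adjusted p = 0.257) and Gclm, of glutathione synthesis, at 0.42 ± 0.19. The heme oxygenase gene Hmox1 was at −0.63 ± 0.29. Of 11 heat shock genes 5 were higher and 6 lower (median −0.07, 0 passing and 0 by unadjusted p). Of 11 glucocorticoid-responsive genes, of which Cdkn1a is 1, 7 were higher and 4 lower (median 0.11, 0 passing), with Zbtb16 at −0.89 ± 0.28 and Pdk4 at 0.61 ± 0.24.

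The KO difference of Atf4 at 12 weeks was 0.74 in males (3 arrays each) and −0.79 in females (3 KO, 2 WT). At 6 weeks it was 0.49 in males (2 arrays each) and −1.17 in females (1 KO, 2 WT). Within each genotype at 12 weeks sex went with replicate number, so the 2 cannot be told apart. The lower-numbered arrays, WT females and KO males, had means of 7.34 and 7.26. The higher-numbered arrays, WT males and KO females, had means of 6.52 and 6.55. No difference between sexes was tested.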
